A study of Mus musculus with 6 samples.

Results

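Insulin-like growth factor (IGF) binding proteins, the IGF and insulin receptors and their partners were followed at the RNA level in MA-10 cells and in STARKO1 cells. The members are 10 genes named by symbol (Igfbp2, Igfbp3, Igfbp4, Igfbp5, Igfbp6, Igfbp7, Igf1, Igf1r, Insr and Irs1), and a gene counted as present where its symbol stood in the deposited count table. Of the 10, 8 were found among the 14774 genes of the table, and the same 8 were among the 11939 genes with enough counts to be tested. Igfbp3 and Igf1 were not analysed here, because no row of the table carries their symbols and every gene in the table has at least 10 estimated counts in total. The members were picked with the results of this comparison known, and chosen by their measured levels in the 2 cell lines, in particular the large difference of Igfbp5, so their values are given as a description with no test.

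The data are RNA sequencing of 3 libraries of MA-10 cells, a line from a mouse Leydig cell tumor that carries wild type Star, and 3 libraries of STARKO1 cells, in which Star had been disrupted with CRISPR/Cas9. Both cell lines were untreated and grown in their ordinary medium, and total RNA was made into stranded libraries. STARKO1 is 1 clone grown from a single sorted cell, so the loss of Star cannot be told apart from other properties of that clone. Nothing in the labels says that the 3 libraries of a cell line came from separate cultures, so the p-values given for other genes measure only the spread between these samples, which may be technical.

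In the IGF system, IGF-1 and IGF-2 bind the IGF-1 receptor, a tyrosine kinase closely related to the insulin receptor, and the adaptor IRS1 docks on the activated receptors and recruits PI3-kinase. IGF-binding proteins are secreted, hold most of the IGF outside cells and can either keep it from the receptor or deliver it. In the testis, IGF-1 signaling is known for its part in the maturation of Leydig cells and their steroid output.

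The libraries held 14114349 to 19530054 counts each. Levels are given as CPM, the count per 1000000 of library size scaled by edgeR's TMM method, with the mean ± SD of a cell line, and 3 counts corresponded to 0.129 to 0.264 CPM. Star, the targeted gene, had 697 to 1261 counts in the MA-10 libraries and 36 to 48 in the STARKO1 libraries (log2 fold change -5.09 with a standard error, SE, of 0.331, edgeR quasi-likelihood adjusted p = 0.00121). MA-10 replicate 1 stood apart from its group. Pearson's r of log2 CPM across 8538 genes, which are not independent replicates, was 0.802 and 0.874 with the other two MA-10 libraries but 0.949 to 0.955 with the STARKO1 libraries. The share of 7SL RNA was 1.81% in that library, 14.4% and 6.63% in MA-10 replicates 2 and 3, and 1.82% to 2.37% in STARKO1 cells. Long genes were also read relatively more in it, with the longest 25% of genes lying 0.22 above the shortest 25% in log2 deviation, against -0.52 and -0.15 in MA-10 replicates 2 and 3 and 0.13 to 0.16 in STARKO1 cells. The results of the members and of other listed IGF genes that rest on this library are therefore also given without it. All 6 Leydig markers checked were present, with a summed level of 1253 to 1693 CPM in MA-10 cells and 1123 to 1184 CPM in STARKO1 cells. Of the 6, Hsd3b1, a steroidogenic enzyme, fell from a mean of 29.8 to 5.19 CPM (log2 fold change -2.52 ± 0.219, SE, edgeR quasi-likelihood adjusted p = 0.00268), and the others, with log2 fold changes of -0.93 (Cyp11a1) to 1.27 (Cyp17a1), did not pass. Of markers of other testis cells, the defining genes Sox9, Amh, Acta2, Adgre1, Ptprc, Dazl and Col1a1 have no row in the table. The levels of the 2 endothelial markers in the table, of 4 checked, summed to 26.4 to 41.5 CPM in MA-10 cells and 118 to 124 CPM in STARKO1 cells. Nearly all of this was Cdh5 (log2 fold change 1.84, edgeR quasi-likelihood adjusted p = 0.00596), with Pecam1 at most 0.860 CPM. Those of 2 of 4 myoid markers summed to 13.0 to 20.5 and 1.72 to 2.59 CPM. Most of this was Des (log2 fold change -3.00, edgeR quasi-likelihood adjusted p = 0.00499), with Myh11 at most 0.969 CPM. The 1 of 4 stromal markers, Pdgfra, was at 2.78 to 6.69 and 0 to 0.118 CPM (log2 fold change -6.42, edgeR quasi-likelihood adjusted p = 0.00595). For 2 of 7 Sertoli markers (Dhh and Rhox5) the sums were 333 to 524 and 565 to 589 CPM, for 2 of 4 macrophage markers 4.86 to 9.85 and 6.37 to 8.56 CPM, and for 1 of 4 germ cell markers 2.20 to 3.55 and 1.91 to 2.83 CPM. Both are cultured cell lines and not testis tissue, so these values are levels of genes and do not show that such cell types were present. The part of these genes in the members' differences was not tested. In bulk RNA, fewer cells that express a gene cannot be told apart from less RNA per cell.

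The sequences before the start sites of Igfbp5, Igfbp4 and Irs1 are shown because the libraries of the cell lines did not overlap for these 3 members (as for 42.5% of all genes tested), and that of Igfbp2 because it is the neighbor of Igfbp5 and differed little. Each is the 250 bases before the RefSeq start in GRCm38.p6, read 5′ to 3′ on the strand of the gene. Capitals mark TATAAA in Igfbp4, TATTTAA in Igfbp5 and GGGCGG (a GC box) in Irs1 and Igfbp2, searched on both strands.
Igfbp5 (chr1:72874866-72875115, minus strand): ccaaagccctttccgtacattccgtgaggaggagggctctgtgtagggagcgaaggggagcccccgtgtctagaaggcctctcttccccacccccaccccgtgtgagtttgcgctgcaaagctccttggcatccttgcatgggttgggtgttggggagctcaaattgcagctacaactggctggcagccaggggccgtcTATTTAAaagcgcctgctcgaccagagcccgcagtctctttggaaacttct
Igfbp4 (chr11:99040994-99041243, plus strand): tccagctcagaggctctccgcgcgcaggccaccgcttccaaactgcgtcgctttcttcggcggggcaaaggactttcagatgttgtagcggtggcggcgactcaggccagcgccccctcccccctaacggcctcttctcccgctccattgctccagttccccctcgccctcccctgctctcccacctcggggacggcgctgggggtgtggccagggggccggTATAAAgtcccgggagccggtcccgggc
Irs1 (chr1:82291440-82291689, minus strand): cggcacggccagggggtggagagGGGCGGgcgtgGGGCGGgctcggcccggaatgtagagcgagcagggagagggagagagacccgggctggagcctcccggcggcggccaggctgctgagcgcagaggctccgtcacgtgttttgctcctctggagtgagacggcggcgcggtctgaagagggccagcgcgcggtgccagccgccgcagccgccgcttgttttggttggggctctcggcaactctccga
Igfbp2 (chr1:72824230-72824479, plus strand): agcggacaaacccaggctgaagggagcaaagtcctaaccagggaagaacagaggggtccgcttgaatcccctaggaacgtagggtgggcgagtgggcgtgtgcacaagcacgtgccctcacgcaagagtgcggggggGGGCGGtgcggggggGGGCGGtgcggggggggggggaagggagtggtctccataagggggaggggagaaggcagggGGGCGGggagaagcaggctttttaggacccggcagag

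The TATAAA of Igfbp4 begins 28 bases before the start, and 12.4% of the 32851 RefSeq mouse windows of this length hold these letters on either strand. The window of Igfbp6 also holds them, on the other strand. The run TATTTAA of Igfbp5, looked for after the sequence had been read, begins 51 bases before the RefSeq start and is found in 4.18% of windows. The start of Igfbp5 in GENCODE M21, 72874884, lies inside the printed window, so the run is nearer to that start. The windows of Irs1 and Igfbp2 hold 2 and 3 GC boxes, a motif found in 32.7% of windows. Those of Igfbp7 and Igf1r, not shown, hold 4 and 2. Igfbp5 has the fewest CpG dinucleotides of the 4 shown with 10, against 22 in Igfbp4, 28 in Irs1 and 14 in Igfbp2. Of the member windows not shown, Igfbp6 (7) and Igf1 (5) have fewer than Igfbp5, and Igfbp3 (32), Igfbp7 (26) and Igf1r (42) have more. The median over all windows is 6. None of the 9 member windows found in the reference table holds CAAGGTCA, a form of the element bound by the Leydig cell factor SF-1, which occurs in 1.33% of all windows. The table has no window for Insr.

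Among the binding proteins, Igfbp5 was far higher in STARKO1 cells and Igfbp4 was lower, while Igfbp2, Igfbp6 and Igfbp7 had libraries that overlapped between the cell lines. Igfbp5 encodes a binding protein that also attaches to the extracellular matrix. It lies on the minus strand of chromosome 1 of GRCm38, from 72857932 to 72874884. It had 36, 6 and 13 counts in the MA-10 libraries, in the order of replicates 1 to 3, against 7944, 2740 and 7827 counts in the STARKO1 libraries. These are 2.06, 0.520 and 1.14 CPM in MA-10 cells against 342, 162 and 439.7 CPM in STARKO1 cells. The lowest STARKO1 library was thus far above the highest MA-10 library. The means, 1.24 ± 0.775 and 314 ± 141 CPM (n = 3 each), had a ratio of 253, and the fitted log2 fold change was 7.92 (SE 0.653). Because Igfbp5 was near the floor in MA-10 replicate 2, the exact size of the ratio is loose, and leaving out 1 library at a time gave log2 fold changes between 7.57 and 8.64. MA-10 replicate 1 alone, the library nearest to the knockout, still differed from STARKO1 cells by 7.25.

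Igfbp5 also varied within STARKO1 cells. Among the 8094 genes whose STARKO1 mean was 10 CPM or more, Igfbp5 had the largest SD of log2 CPM over the 3 libraries, 0.752, where the median gene had 0.0727 and the 99th percentile was 0.254. STARKO1 replicate 2 held 47.3% of the lower of the other two libraries. This pattern was looked for after the values of Igfbp5 had been seen. Of the other members at that level, Igfbp7 had the next highest SD, 0.204. In MA-10 cells, by contrast, Igf1r (0.862) and Igfbp6 (0.842) had a wide spread. Such a spread was not unusual there. Of the 8151 genes with a MA-10 mean of 10 CPM or more, 12.7% and 13.5% had a larger SD than these 2. For Igf1r replicate 1 was away from the other two libraries, and for Igfbp6 the 3 libraries were spread evenly on the log2 scale.

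**Figure D1:**
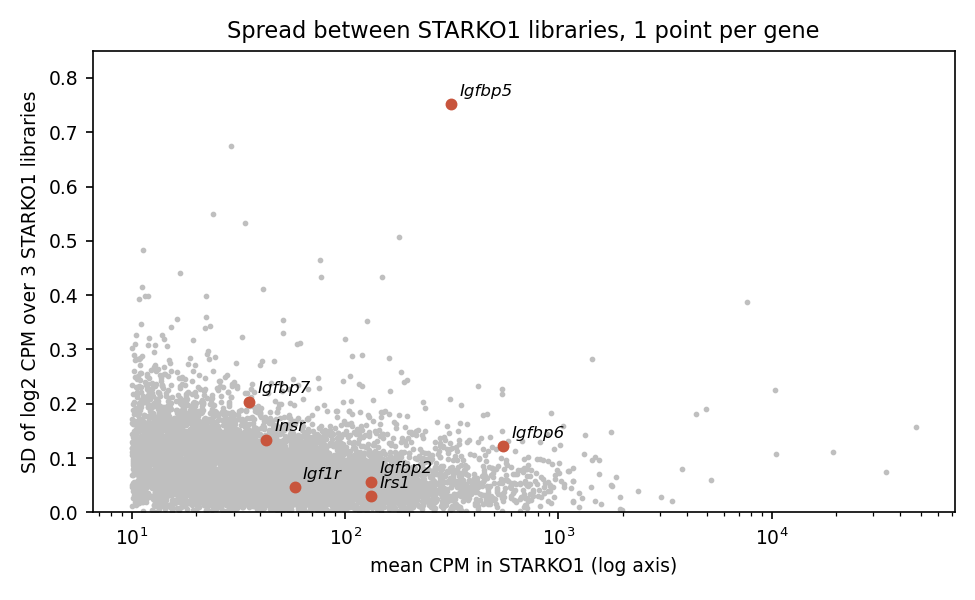
Spread within STARKO1 cells of the genes whose mean was 10 CPM or more: each gray point is a gene, with its mean level (CPM, log axis) on the horizontal axis and the SD of its log2 CPM over the 3 STARKO1 libraries on the vertical axis, and the members are named (red). Igfbp5 lies at the top with 0.752, against a median of 0.0727 over the 8094 genes.

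Igfbp4 encodes a binding protein that mostly restrains IGF action until it is cut by the protease PAPP-A. Its place is chromosome 11, 99041244 to 99054392, plus strand. Its counts were low throughout, with 31, 17 and 29 in the MA-10 libraries, and only 7, 6 and 3 in the knockout. In CPM these were 1.78, 1.47 and 2.55 against 0.301, 0.354 and 0.169, so that every MA-10 library was above every STARKO1 library. The means, 1.93 ± 0.557 and 0.274 ± 0.0954 CPM (n = 3 each), differed 7.05-fold, with a log2 fold change of -2.78 (SE 0.408). The STARKO1 libraries were close to the level of 3 counts, so a further fall could not have been seen at this depth. The log2 fold change stayed between -2.97 and -2.53 when single libraries were left out.

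Igfbp6, whose protein prefers IGF-2, was the most abundant binding protein RNA in both cell lines (chromosome 15, 102144362 to 102149511, plus strand). Levels in MA-10 cells were 491, 1576 and 920 CPM by replicate, against 517, 528 and 604 CPM in STARKO1 cells. MA-10 replicate 1 was below all 3 STARKO1 libraries and the other two MA-10 libraries were above them. The log2 fold change was -0.86 (SE 0.414) with all libraries, -1.09 without MA-10 replicate 1, -0.36 without MA-10 replicate 2 and 0.16 with MA-10 replicate 1 alone against STARKO1 cells, so the direction rests on which MA-10 libraries are used. Igfbp6 is also the member with the shortest exons in sum, 1112 bases, and offsets for gene length brought its log2 fold change to -0.51.

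Igfbp2, a binding protein abundant in fetal tissues (chromosome 1, 72824503 to 72852474, plus strand), had 134, 105 and 85.4 CPM in the MA-10 replicates and 127, 137 and 133 CPM in the STARKO1 replicates. The groups overlapped through MA-10 replicate 1. Its log2 fold change of 0.29 (SE 0.202) became 0.57 without that library and -0.02 with it alone. Igfbp7, a secreted protein that carries the binding protein domain but holds IGF weakly (chromosome 5, 77349240 to 77408041, minus strand), had 33.6, 25.8 and 28.8 CPM in MA-10 cells and 40.1, 30.3 and 36.1 CPM in STARKO1 cells. Again MA-10 replicate 1 fell inside the STARKO1 range, and the log2 fold change was 0.27 (SE 0.181), or 0.47 without it. The gene overlaps Polr2b and the antisense transcript Gm34648 on the other strand, and whether reads were counted by strand is not given in the sources used here. The estimated counts of Igfbp7, Igfbp2 and Igfbp5 were not all whole, but lay at most 0.01, 0.05 and 0.39 of a count from a whole number.

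**Figure D2:**
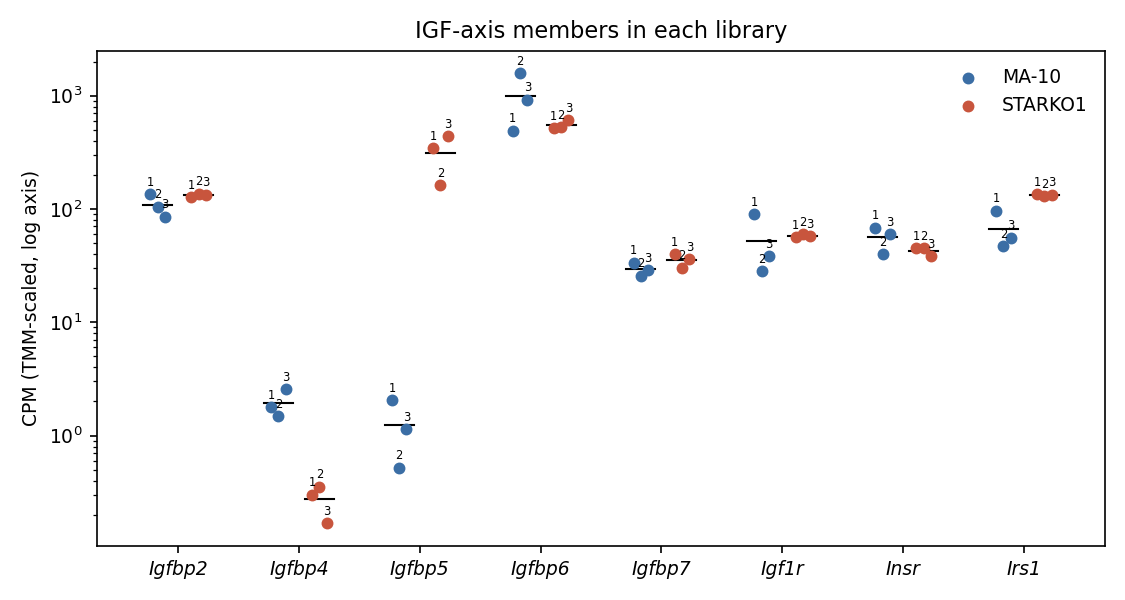
Level of each of the 8 members found in the table, in CPM on a log axis, with 1 point per library (numbered by replicate), MA-10 and STARKO1 libraries side by side and a bar at the mean. The groups are clear of each other for Igfbp5, Igfbp4 and Irs1, and for Igf1r MA-10 replicate 1 lies apart from MA-10 replicates 2 and 3.

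To compare levels between genes, CPM were divided by the summed exon length in kilobases. Igfbp6 made up 81.4%, 94.7% and 92.1% of the summed level of the 5 binding proteins in the MA-10 libraries by replicate, against 74.6%, 79.0% and 75.6% in the STARKO1 libraries. Igfbp5 made up 0.0301 ± 0.0297% in MA-10 cells and 7.93 ± 3.04% in STARKO1 cells (n = 3 each). Per kilobase the order of the means in MA-10 cells was Igfbp6 (895 ± 491), Igfbp2 (58.6 ± 13.3), Igfbp7 (24.3 ± 3.24), Igfbp4 (0.438 ± 0.126) and Igfbp5 (0.207 ± 0.129). Neighbors in this order were apart by more than their SDs except for the last pair, of which Igfbp4 was above Igfbp5 in MA-10 replicates 2 and 3 but by little in replicate 1. In STARKO1 cells the order was Igfbp6 (494 ± 42.8), Igfbp2 (71.6 ± 2.80), Igfbp5 (52.3 ± 23.5), Igfbp7 (29.4 ± 4.07) and Igfbp4 (0.0621 ± 0.0216). There Igfbp5 moved up to a place whose SD reaches those of Igfbp2 and Igfbp7. The summed level was 979 ± 482 CPM per kilobase in MA-10 cells and 648 ± 62.6 in STARKO1 cells, a difference smaller than the spread among the MA-10 libraries.

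**Figure D3:**
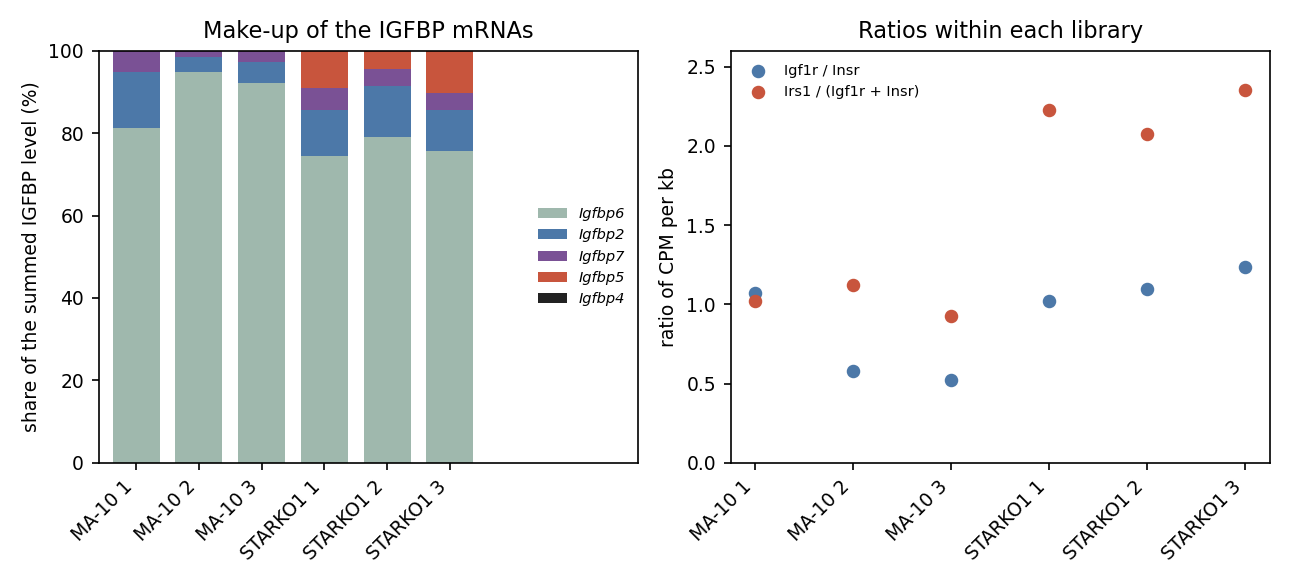
Left, share of each gene in the summed CPM per kilobase of the 5 binding proteins in each library (%), where Igfbp5 takes 4.47% to 10.2% in STARKO1 cells and under 0.1% in MA-10 cells. Right, ratios of CPM per kilobase within each library, with Irs1 over the sum of Igf1r and Insr at 2.08 to 2.35 in STARKO1 cells and 0.925 to 1.12 in MA-10 cells.

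Of the receptors and their adaptor, Irs1 was higher in every STARKO1 library than in any MA-10 library, and the receptors overlapped between the cell lines. Igf1r encodes the receptor that carries most IGF signals (chromosome 7, 67952827 to 68233668, plus strand). By replicate, its level was 89.4, 28.3 and 38.1 CPM in MA-10 cells, against 56.3, 60.0 and 57.8 CPM in STARKO1 cells. The 3 STARKO1 libraries were nearly equal and lay between MA-10 replicate 1 and the other two MA-10 libraries. The log2 fold change was 0.16 (SE 0.410), was 0.89 without MA-10 replicate 1 and -0.62 with that library alone. It was -0.14 without MA-10 replicate 2 and -0.02 without MA-10 replicate 3.

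Insr encodes the insulin receptor (chromosome 8, 3122061 to 3279617, minus strand). It had 68.4, 39.9 and 59.7 CPM in the MA-10 replicates and 45.1, 44.8 and 38.3 CPM in the STARKO1 replicates. Only MA-10 replicate 2 was within the STARKO1 range, and the log2 fold change was -0.39 (SE 0.227), -0.14 without MA-10 replicate 1 and -0.68 with it alone. Per kilobase of exon, Insr (4.07 ± 1.06) and Igf1r (3.09 ± 1.95) did not differ beyond their spread in MA-10 cells, and in STARKO1 cells they lay close together (3.11 ± 0.281 and 3.45 ± 0.112). Within a library the ratio of Igf1r to Insr was 1.07, 0.580 and 0.523 in the MA-10 replicates and 1.02, 1.10 and 1.24 in the STARKO1 replicates.

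Irs1 lies on the minus strand of chromosome 1, from 82233101 to 82291416. It had 96.3, 46.9 and 55.9 CPM in the MA-10 libraries, again by replicate, against 135, 129.7 and 134 CPM in the STARKO1 libraries. The groups did not overlap, with MA-10 replicate 1 the nearest to the STARKO1 libraries. The means, 66.4 ± 26.3 and 133 ± 2.77 CPM (n = 3 each), had a ratio of 2.00, and the log2 fold change was 1.00 (SE 0.281). It was 1.46 without MA-10 replicate 1 and 0.47 with that library alone. Gm9747, which overlaps Irs1 on the other strand, had 1 to 6 counts a library. The 3 genes Igf1r, Insr and Irs1 all have long exons in sum, 16791, 13746 and 9144 bases, and MA-10 replicate 1, in which long genes were read more, was the highest MA-10 library for each of them. With offsets for gene length, the log2 fold changes were 0.14 for Igf1r, -0.43 for Insr and 0.96 for Irs1. Without them they were 0.16, -0.39 and 1.00. Beyond this fit, the part of gene length in their differences was not tested. Relative to the sum of Igf1r and Insr within the same library, Irs1 per kilobase was 1.02, 1.12 and 0.925 in the MA-10 replicates and 2.23, 2.08 and 2.35 in the STARKO1 replicates. The means of this ratio, which was formed after the values had been seen, were 1.02 ± 0.0971 and 2.22 ± 0.138.

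Counted by the threshold of an adjusted p under 0.05, 2 of the 8 members passed, Igfbp5 higher and Igfbp4 lower, where 9.04% of all genes tested passed, 4.3% higher and 4.74% lower. The libraries of the cell lines did not overlap for 3 of the 8, where 42.5% of all genes tested had no overlap. Nothing is read from these counts, because the same comparison chose the members. The median log2 fold change was 0.21 over the members and -0.05 over all genes tested.

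**Figure D4:**
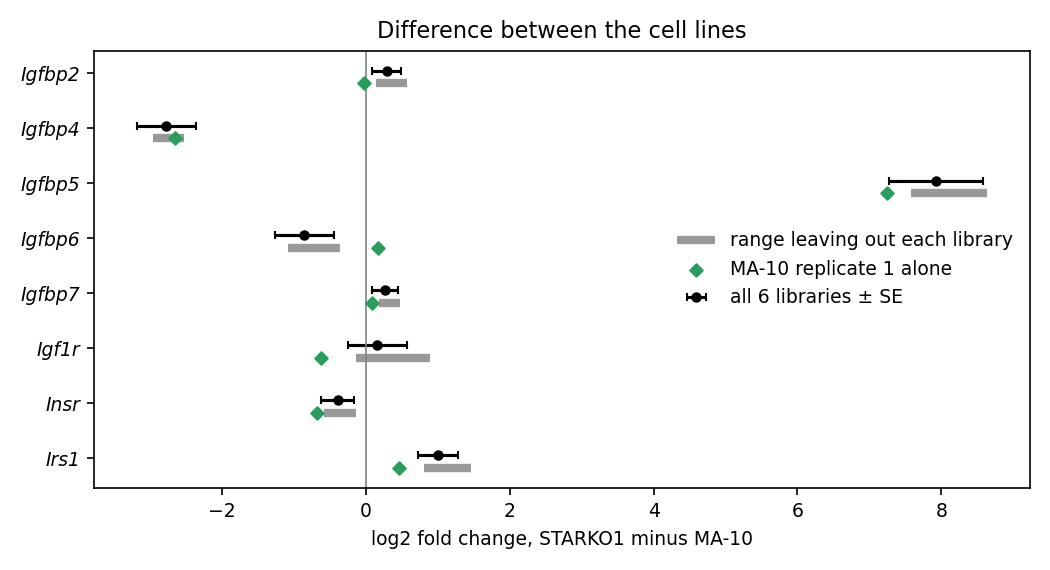
Log2 fold change of each member, STARKO1 over MA-10, with all 6 libraries (black, bars are the SE), the range over the 6 fits that each left out 1 library (gray bar) and MA-10 replicate 1 alone against STARKO1 (green). Igfbp5, Igfbp4, Irs1, Igfbp7 and Insr keep their side of 0 throughout, whereas the gray bar of Igf1r crosses 0 (-0.14 to 0.89) and the green points of Igfbp6 and Igfbp2 (0.16 and -0.02) lie across 0 from the black ones.

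The other genes of the IGF axis were taken from 4 lists with 86 genes, of which 53 were in the table and 48 were tested. Of these, 4 passed the threshold (8.33%, against 9.04% of all genes tested), 1 higher and 3 lower, and their median log2 fold change was 0.14. The list of other ligands, carriers and related genes had 15 members, 4 of them in the table (Ins2, Stc1, Stc2 and Igf2bp2) and 2 tested. With edgeR 0 passed, with 1 at an unadjusted p under 0.05, while DESeq2 called 1, Igf2bp2. Igf2bp2, which encodes a protein that binds Igf2 mRNA, had 10.1, 9.80 and 12.1 CPM in MA-10 cells against 7.40, 4.48 and 5.34 CPM in STARKO1 cells (log2 fold change -0.89 ± 0.236, SE, edgeR quasi-likelihood adjusted p = 0.0603). Stc2, which encodes an inhibitor of the protease that cuts IGFBP4, had a log2 fold change of 0.16 (SE 0.144, adjusted p 0.435). Without MA-10 replicate 1, Igf2bp2 and Stc2 both passed, where 7990 of all 12167 genes tested did. Igf2bp2 then had a log2 fold change of -0.83 (edgeR quasi-likelihood adjusted p = 0.0132). Igf2 and Igf2r were not analysed here. Of 19 other genes whose proteins hold an IGFBP-type domain, 6 were in the table, 3 were tested (Htra1, Kazald1 and Crim1) and 0 passed, with 0 at an unadjusted p under 0.05 and 0 with DESeq2. Their log2 fold changes were 0.36 to 0.76, with a median of 0.40. Without MA-10 replicate 1 the median was 0.94, and 2 of the 3 passed, Htra1 and Kazald1, both higher in STARKO1 cells.

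Among 27 adaptors and inhibitors of the receptors, 19 were tested, and 2 passed the threshold (10.5%, against 9.04% of all genes tested). Both were lower in STARKO1 cells, where 4.74% of all genes tested passed as lower. Dok4, a docking protein of receptor tyrosine kinases, had 3.72, 4.25 and 3.70 CPM in the MA-10 replicates and 1.68, 1.77 and 1.74 CPM in the STARKO1 replicates (log2 fold change -1.17 ± 0.219, SE, edgeR quasi-likelihood adjusted p = 0.0276). Shc4, an adaptor of the SHC family, had 8.53, 7.20 and 7.93 CPM against 4.65, 3.77 and 3.76 CPM (log2 fold change -0.96 ± 0.194, SE, adjusted p = 0.0342). Neither gene had libraries that overlapped, as for 9 of the 19 genes of the list and 42.5% of all genes tested. The median of the list was -0.19, and 31.6% of its genes (6) had an unadjusted p under 0.05, against 37.6% of all genes tested. Each of the 2 passed in 1 of the 6 fits that left out a library, the one without MA-10 replicate 1, and over the 6 fits the adjusted p went from 0.00278 to 0.182 for Dok4 and from 0.00528 to 0.185 for Shc4. Their log2 fold changes stayed between -1.20 and -1.06 and between -1.02 and -0.80 in these fits.

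Of 25 genes of the PI3K, AKT, mTOR and FOXO pathway downstream of IRS1, 24 were tested, and 2 passed the threshold (8.33%, against 9.04% of all genes tested), 1 higher and 1 lower. Pik3r1, the regulatory subunit of PI3-kinase that binds phosphorylated IRS1, rose from 42.4, 29.0 and 40.1 CPM in the MA-10 replicates to 88.0, 85.5 and 86.1 CPM in the STARKO1 replicates (log2 fold change 1.22 ± 0.187, SE, edgeR quasi-likelihood adjusted p = 0.0155). Eif4ebp1, a repressor of translation that mTOR inactivates, fell from 235, 1012 and 652 CPM to 146, 149 and 152 CPM (log2 fold change -2.09 ± 0.496, SE, adjusted p = 0.0483). The libraries did not overlap for either gene, as for 8 of the 24 genes of the list and 42.5% of all genes tested. Eif4ebp1 was nearest to the STARKO1 level in MA-10 replicate 1, which alone gave -0.66. The median of the list was 0.26, and 29.2% of its genes (7) had an unadjusted p under 0.05, against the same 37.6%. Of the 6 fits that left out a library, Pik3r1 passed in those without MA-10 replicate 1 and without MA-10 replicate 2 (adjusted p from 0.000156 to 0.0996 over the 6), and Eif4ebp1 in the one without MA-10 replicate 1 (2.15e-05 to 0.199). Their log2 fold changes went from 1.07 to 1.41 and from -2.39 to -1.58. In the fit with a replicate block, adjusted p was 0.101 for Dok4, 0.0988 for Shc4, 0.0955 for Eif4ebp1 and 0.0551 for Pik3r1, so that 0 of the 4 passed, while the log2 fold changes were -1.16, -0.96, -1.86 and 1.24.

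**Figure D5:**
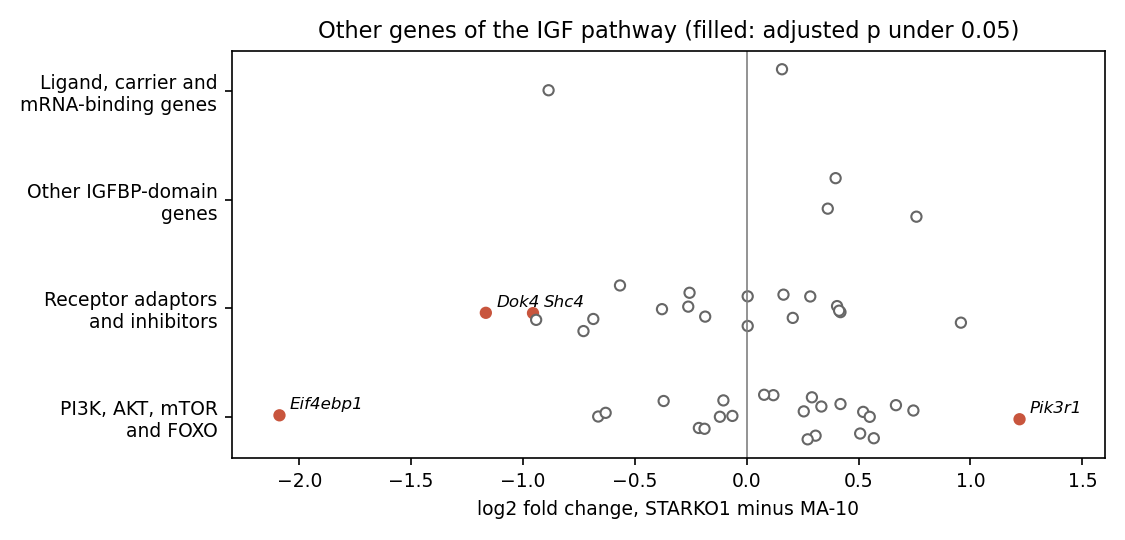
Log2 fold change, STARKO1 over MA-10, of the tested genes of the 4 other IGF lists, 1 point per gene, filled and named where the adjusted p was under 0.05, with a small vertical scatter only to keep points apart. Dok4, Shc4 and Eif4ebp1 lie below 0 and Pik3r1 above it, and the other genes did not pass.

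Igfbp5 and Igfbp2 lie next to each other on chromosome 1, tail to tail and 5457 bases apart. While Igfbp5 differed by a log2 fold change of 7.92, Igfbp2 differed by 0.29. On the other side of Igfbp5, the nearest gene of the table is Tns1, 1035346 bases away, which encodes a focal adhesion protein and had means of 68.4 ± 36.4 and 109 ± 3.56 CPM in MA-10 and STARKO1 cells (log2 fold change 0.67 ± 0.352, SE, edgeR quasi-likelihood adjusted p = 0.200). Of the genes beside Igfbp4, Top2a (17054 bases away) had a log2 fold change of 0.00 (SE 0.200, adjusted p 0.993), and Smarce1 (154654 bases away) one of -1.12 (SE 0.387, adjusted p 0.0912). None of these 3 neighbors passed the threshold.

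The genes with the pattern most like that of a member were taken by the Euclidean distance between log2 CPM over the 6 libraries, each profile centered on its mean. For Igfbp5 these were Klk1b27 (2.99), Klk1b24 (3.41), Pnp2 (4.26), Klk1 (4.30) and Dnah10 (4.60). Klk1, a tissue kallikrein, had 44, 36 and 22 counts in MA-10 cells against 1595, 951 and 1361 in STARKO1 cells. Klk1b27 had 3, 1 and 3 counts against 377, 192 and 293. In CPM both were lowest in STARKO1 replicate 2, whereas Dnah10 was lowest in STARKO1 replicate 1 (2.11, 2.71 and 2.70 CPM). Dnah10 had 0 counts in every MA-10 library. The distance was taken over these same libraries and depends on the size of the difference between the cell lines, by which Igfbp5 was chosen. The kallikrein genes are similar in sequence, so how reads were divided among them is uncertain. For Igfbp4 the nearest profiles were those of Morc4 (0.595), Myof (0.639), Hddc3 (0.784), Fam102b (0.794) and Ahnak2 (0.798). No tested gene came as close to the profile of Igfbp5, where the smallest distance was 2.99.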

How the data were processed

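RNA of 3 MA-10 and 3 STARKO1 libraries was sequenced. The authors aligned the reads and deposited an estimated count per gene for each library, not normalized and not pooled. The submitters' processing notes name STAR 2.6.1d, Partek and mm10, and the counting program and its settings are not given in the sources used here. Values were not whole for 54.2% of genes and were rounded, and how reads of similar genes were counted is not stated. Cell lines were compared in R 4.3.3 with edgeR 4.0.16 (filterByExpr, TMM, glmQLFit and glmQLFTest), with Benjamini-Hochberg adjustment over all 11939 genes tested and a threshold of 0.05. The standard error is the size of the log2 fold change divided by the square root of F. With totals of 14114349 to 19530054 counts and a common biological coefficient of variation of 0.291, the spread between libraries limited the precision more than depth, except for genes with few counts, such as Igfbp4 in STARKO1 cells and Igfbp5 in MA-10 cells. The fit shares the spread of a gene between the cell lines. Pearson's r of log2 CPM was 0.802 to 0.974 among MA-10 libraries and 0.995 to 0.996 among STARKO1 libraries. Coordinates and exon lengths came from GENCODE M21 (GRCm38), in which 14677 of 14774 genes were found by symbol and chromosome. Promoter sequences came from RefSeq (GRCm38.p6), in which 9 of the 10 members were found. For profiles, log2 CPM had a prior count of 2.

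The members and gene lists were chosen with earlier results of these data known. Named genes are the members, Star, the genes of each list past the threshold, the nearest genes beside Igfbp5 and Igfbp4, the 5 genes closest in profile to each of these, and single genes where a count of 5 or fewer needed names. The scripts were tested on simulated data. Alternatives were other scalings, DESeq2 1.42.0, other filters, a replicate block, gene length offsets and leaving out each library. MA-10 replicate 1 alone against STARKO1 was added after the data had been seen, and there the lone library is assumed to vary like the STARKO1 libraries. Summaries used Python 3.11.15 with numpy 2.4.6 and pandas 2.3.3, and plots used matplotlib 3.10.9.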

Additional observations from a re-analysis of the deposited data

How the results depend on the processing

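The members' calls are a description, since the same comparison chose them. A minimum of 10 counts in every library removed Igfbp4 and Igfbp5. Scaling by library size alone moved the median log2 fold change of all genes from -0.05 to 0.38, so directions of small changes are relative to that shift. Among all genes, 1079 calls became 330 with library size alone (63.6% of them higher, against 47.5%), 3395 with DESeq2, 695 with at least 10 counts, 5086 with MA-10 replicate 1 alone, and 89 to 7990 when 1 library was left out, the latter without MA-10 replicate 1. The 2 of 8 members called became 1 with library size alone (Igfbp5) and 0 of 6 with at least 10 counts. With 1 library left out they became 1 to 7, the 7 without MA-10 replicate 1. They became 3 with DESeq2 and 3 with gene length offsets, with Irs1 added in both. Of the 6 fits that left out a library, Igfbp5 was called in 6 and Igfbp4 in 2. The 2 adaptors became 1 with upper quartile scaling, 0 with library size alone, 5 with DESeq2, 1 with no filter, 14 with MA-10 replicate 1 alone, and 0 to 12 with 1 library left out. The 2 PI3K pathway genes became 1 with upper quartile scaling, 0 with library size alone, 4 with DESeq2, 1 with no filter, 1 with at least 10 counts, 9 with MA-10 replicate 1 alone, and 0 to 17 with 1 library left out. The 0 of 2 ligands and carriers became 1 with DESeq2 and 0 to 2 with 1 library left out, the 2 without MA-10 replicate 1. The 0 of 3 genes with an IGFBP-type domain became 0 to 2 with 1 library left out, the 2 without MA-10 replicate 1. The cause of these moves was not tested.

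In the fit with a replicate block, 234 calls were made in all, 1 member (Igfbp5), 0 adaptors and 0 PI3K pathway genes. Nothing in the labels pairs the same-numbered libraries of the 2 cell lines. Their deviations from the group means correlated at -0.0165, 0.0455 and 0.0201, and those of libraries with different numbers at -0.0535 to 0.0382. With 3 libraries per cell line, such values cannot decide whether same-numbered libraries were prepared together.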
